A study of Solanum lycopersicum with 3 samples.

Results

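A set of 7 genes that build or control the plant cuticle and epidermis was described in leaf primordia of the tomato (Solanum lycopersicum) mutant slmp. The members were fixed by a list of locus identifiers, with no threshold on a value, although earlier results of these data were known when the list was drawn up. Of the 7, 6 were among the 21717 loci of the deposited table: CD2 (Solyc01g091630), a MIXTA-like gene (Solyc02g088190), a SHINE-type gene (Solyc03g116610), a CYP86A-type gene (Solyc01g094750), CER6 (Solyc02g085870) and CD1 (Solyc11g006250). The other SHINE-type locus, Solyc06g053240, was not analysed here. Names were taken from the gene list that defined the set. The RefSeq table of assembly SLM_r2.1 holds the symbols CD1, CD2, CER6 and SHINE3, on chromosomes 11, 1, 2 and 6, the same chromosomes as in the identifiers. SHINE3 matches the chromosome of Solyc06g053240, the locus not analysed here. No symbol was matched to the analysed SHINE-type gene, the MIXTA-like gene or the CYP86A-type gene. The RefSeq table pairs none of its rows with an identifier of this kind, so the names could not be checked further.

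RNA came from 1 group of 3 libraries. Each library was made from 15 primordia of leaf 5 at stage P5, the fifth plastochron, taken from plants of genotype slmp, given as slmp-1 in the growth notes. The plants were kept under days of 18 h light and 6 h dark and were sprayed with water 1 h before collection. The labels call this treatment mock. SlMP is the tomato counterpart of the auxin response factor MONOPTEROS. No other genotype or treatment was analysed here, so the data give levels in the mutant primordium and not the effect of the mutation. The labels do not say whether the primordia of a library came from separate plants or whether the libraries came from separate sowings, so the spread between libraries may be partly technical.

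The cuticle is the hydrophobic layer that epidermal cells deposit on the outer face of a leaf, and it limits water loss. Its framework is cutin, a polyester of hydroxylated fatty acids, and it is filled and covered by waxes made from very-long-chain fatty acids. Cutin monomers are hydroxylated inside the cell, exported, and joined together in the cell wall, while transcription factors of the HD-ZIP IV, MYB and SHINE types tie this synthesis to the identity and shape of the epidermal cell.

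Values are counts per locus scaled by the authors, and are called scaled values. The libraries were 3′ end libraries, in which a transcript gives about 1 fragment whatever its length, so levels of different genes were compared without division by length. Over all loci the 3 libraries held between 2499843 and 2746410 counting steps, where 1 step is the smallest increment of a library's values, between 0.948 and 1.08 scaled units. No value was at 1 step, so a step is not shown to be 1 read. Of 6 loci recorded under leaf primordium genes, 5 reached a scaled value of at least 10 in every library, as did 68.7% of all loci, so that count does not identify the tissue. Their means ran up to 2527, and the remaining one, recorded as a KNOX gene, had a mean of 6.47. Of 5 loci recorded under flower and ripening fruit, only 2 were among the 21717 loci. Their means were 0.948 and 1.64, and each was listed at 0 in at least 1 library.

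All 6 members were detected, that is, each had a scaled value of at least 10 in every library. The same held for 68.7% of the loci in the table, so detection alone does not set the members apart. Levels spanned a 70.4-fold range between the member means. CD1 and CD2 stood highest, CER6 was intermediate, the MIXTA-like and CYP86A-type genes were lower, and the SHINE-type gene lay just above the detection level. The median of the 6 means was 85.9, against 33.3 for all loci, and 5 of the 6 lay above that median of all loci, where 50% of loci lie by construction. In RNA from whole primordia a lower level of a gene can reflect fewer cells that express it or less of its RNA per cell, which cannot be told apart.

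**Figure D1:**
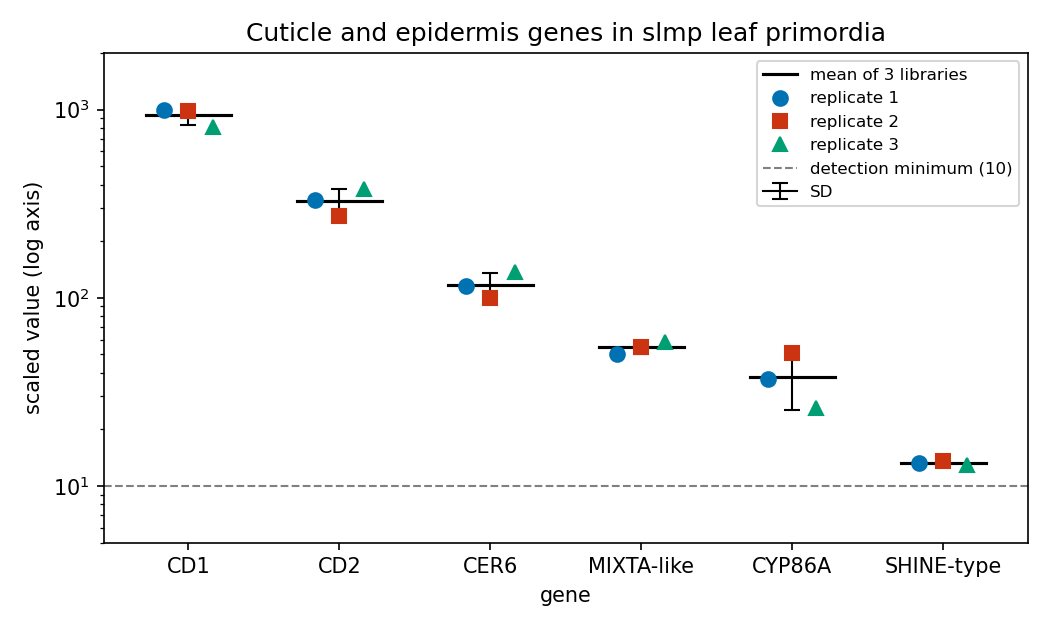
Scaled value (log axis) of each member in each of the 3 slmp libraries, with the mean (bar) and SD (whiskers). CD1 is highest at 810.3 to 994.2, the SHINE-type gene is lowest at 12.9 to 13.5, and the only members whose points overlap are the MIXTA-like and CYP86A-type genes.

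Among the regulators, CD2 was the most abundant transcript. CD2 (CUTIN DEFICIENT) encodes a homeodomain-leucine zipper factor of class IV, a class active in the outermost cell layer, and in tomato its loss thins the fruit cuticle. Its scaled values were 329.8, 273.2 and 379.3 in replicates 1, 2 and 3, a mean of 327.4 ± 53.1 (SD, n = 3). Replicate 3 was highest and replicate 2 lowest, at a ratio of 1.39 between them. Only 1377 of the loci had a higher mean, which places CD2 at percentile 93.7 of the table.

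The MIXTA-like gene encodes a MYB transcription factor, a type known in tomato for promoting both cuticle deposition and the outward shape of epidermal cells. It was measured at 50.2, 55.0 and 58.2 in replicates 1, 2 and 3, a mean of 54.5 ± 4.01 (SD, n = 3). The libraries lay close together and the mean stood at percentile 63.0 of all loci. CD2 exceeded it 6.02-fold on average, and by at least 4.96-fold in each library.

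The SHINE-type gene belongs to a group of AP2/ERF factors that activate cutin and wax genes in Arabidopsis and tomato. Its values were 13.3, 13.5 and 12.9 in replicates 1, 2 and 3, a mean of 13.2 ± 0.288 (SD, n = 3). The 3 libraries were nearly equal, but they rest on only 14, 13 and 12 steps, and Poisson counting of that many steps alone gives a coefficient of variation of 27.7%. The close match of its libraries, at a coefficient of variation of 2.17%, is thus smaller than counting error and carries no information on how stable the gene is. Its mean stood at percentile 29.2 of all loci and, among detected loci, at percentile 1.09. With a detection minimum of 20 in place of 10 it would not be called, which leaves 5 of 6 members, against 55.0% of all loci under that minimum.

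The CYP86A-type gene stands for the first step of cutin synthesis among the enzymes. CYP86A proteins are cytochrome P450 enzymes that hydroxylate the end of fatty acid chains and so make them fit to be cutin monomers. Its scaled values were 37.0, 50.9 and 25.9 in replicates 1, 2 and 3, a mean of 37.9 ± 12.5 (SD, n = 3). Replicate 2 was 1.97 times replicate 3, the widest range of the 6 members. The gene list gives this locus as CD3. Another locus recorded from general knowledge under the CYP86A family, Solyc08g081220, had 19.9, 14.5 and 10.8 in replicates 1, 2 and 3, a mean of 15.1 ± 4.59 (SD, n = 3). Its values did not overlap with those of Solyc01g094750, and which of these loci carries the CD3 mutation could not be checked here.

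CER6 encodes a β-ketoacyl-CoA synthase, an enzyme that lengthens very-long-chain fatty acids for waxes. Its values were 115.6, 99.7 and 136.8 in replicates 1, 2 and 3, a mean of 117.4 ± 18.6 (SD, n = 3). As for CD2, replicate 3 was highest and replicate 2 lowest. The mean lay at percentile 80.7 of all loci.

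CD1 was the highest of the members. It encodes cutin synthase, a secreted acyltransferase of the GDSL family that links monomers into the polymer outside the cell. Its scaled values were 994.2, 988.7 and 810.3 in replicates 1, 2 and 3, a mean of 931.1 ± 104.7 (SD, n = 3). Replicates 1 and 2 were almost equal and replicate 3 was lower than both. Only 465 loci of the table had a higher mean, which places CD1 at percentile 97.9. The enzymes of the set therefore differed widely: CD1 exceeded CER6 8.15-fold and the CYP86A-type gene 25.9-fold, as means of the ratios within each library.

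**Figure D2:**
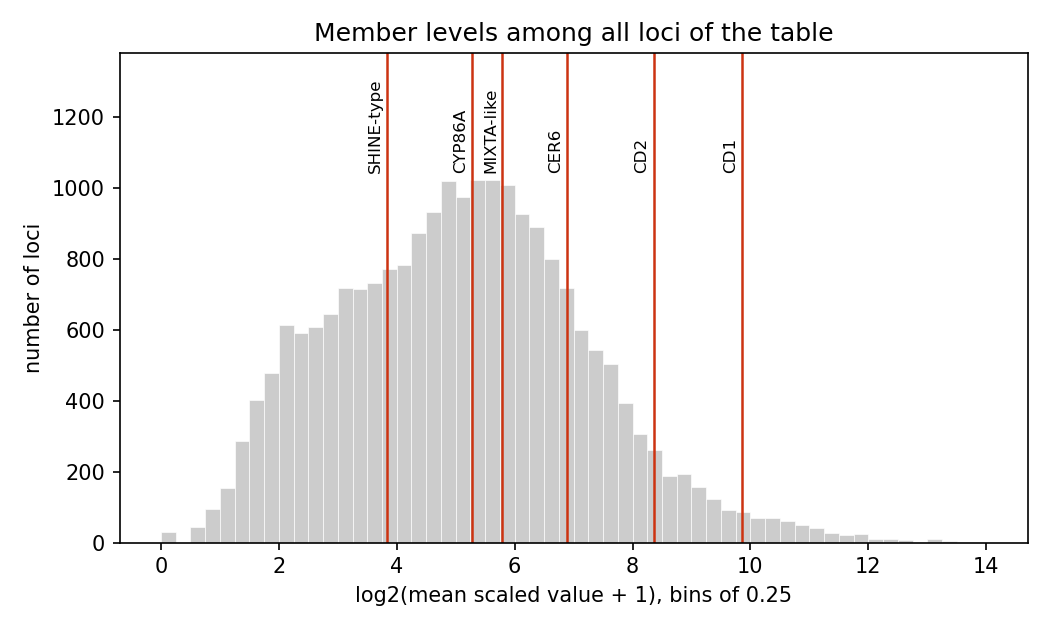
Histogram of log2(mean scaled value + 1) over all 21717 loci, in bins of 0.25, with the mean of each member as a vertical line. The SHINE-type gene lies on the lower side at percentile 29.2, the CYP86A-type and MIXTA-like genes lie near the middle, and CER6, CD2 and CD1 lie at percentiles 80.7, 93.7 and 97.9.

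The order of the members was CD1, CD2, CER6, MIXTA-like, CYP86A-type and SHINE-type, and each of the 3 libraries gave this order for all 15 pairs of members. In 14 of the 15 pairs the values of the libraries did not overlap at all. The same shares were not computed over pairs of other loci, so neither count sets the members apart. The exception was the neighbouring pair of the MIXTA-like and CYP86A-type genes, where the lowest MIXTA-like value, 50.2 in replicate 1, was below the highest CYP86A-type value, 50.9 in replicate 2. Within libraries the ratio of MIXTA-like to CYP86A-type was 1.36, 1.08 and 2.25 in replicates 1, 2 and 3. The MIXTA-like gene was thus the higher of this pair within every library, while their values overlapped across libraries. With 3 libraries an exact paired permutation test between a pair of genes cannot give a 2-sided p below 0.25, so the order is given as a description.

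Spread between libraries was taken as the SD of log2(value + 1). Its median over the 6 members was 0.20, against 0.27 for all detected loci. Single libraries moved this comparison: the members had 0.26 against 0.26 without replicate 1, 0.16 against 0.22 without replicate 2, and 0.12 against 0.19 without replicate 3. Set beside detected loci of their own level decile, 2 of the 6 members were above the decile median: CD2, at 0.24 against 0.23, and the CYP86A-type gene, at 0.48 against 0.30. The other 4 were below it, with 0.23 against 0.24 for CER6, 0.17 against 0.23 for CD1, 0.11 against 0.27 for the MIXTA-like gene and 0.03 against 0.31 for the SHINE-type gene. The SD of CD2 was 0.33 without replicate 1, 0.14 without replicate 2 and 0.19 without replicate 3. That of CER6 was 0.32, 0.17 and 0.15 in the same order. The decile medians were not recomputed with a library left out. Against the median of all detected loci, CD2 and CER6 were below it with all 3 libraries and above it without replicate 1. Whether either changes side of its decile median was not computed. An SD over 3 libraries is itself imprecise, and these differences were not tested.

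The spread of each gene was then set beside its counting error. The coefficient of variation was larger than that of Poisson counting in 4 of 6 members, while the same was true of 71.5% of detected loci. For CD1 it was 11.2% against 3.30% from counting, for CD2 16.2% against 5.58%, for CER6 15.9% against 9.33%, and for the CYP86A-type gene 33.1% against 16.4%. For the MIXTA-like gene it was 7.35% against 13.7%. CD1 had the deepest measurement of the set, with 2753 steps in all, and the SHINE-type gene the shallowest, with 39. These figures cover counting error only, since without molecular identifiers several reads may stem from 1 molecule.

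**Figure D3:**
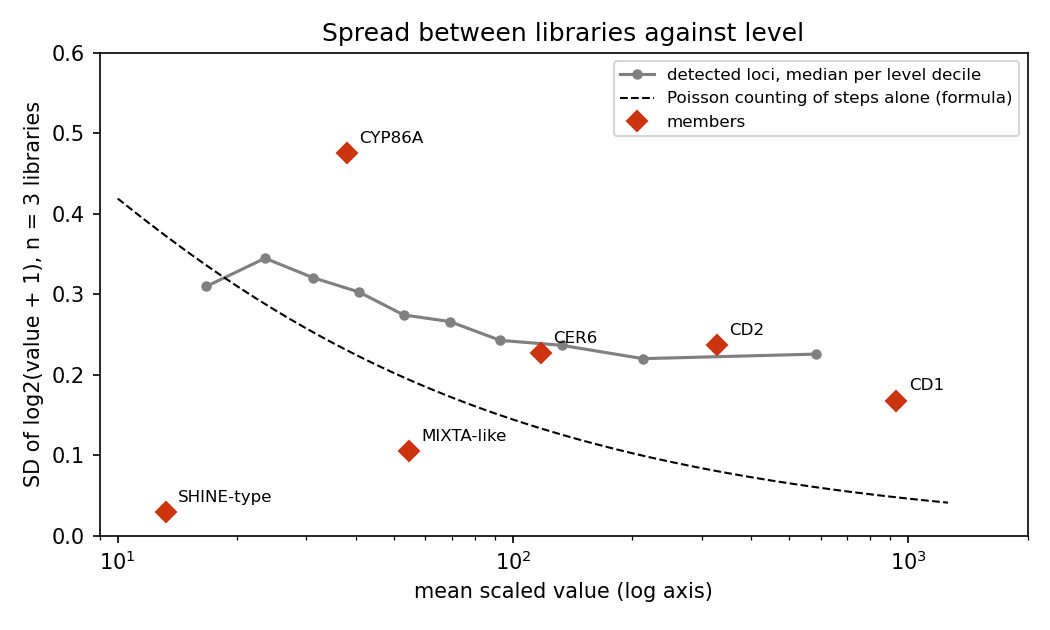
SD of log2(value + 1) over the 3 libraries against mean scaled value (log axis) for each member, with the median of detected loci per level decile (grey) and the SD that Poisson counting of steps would give (dashed). The CYP86A-type gene, at 0.48, lies above both lines, CER6 and CD2 lie near the grey line, and the MIXTA-like and SHINE-type genes lie below both lines.

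The members did not shift together from library to library. The lowest value fell in replicate 1 for 1 member, in replicate 2 for 2 members and in replicate 3 for 3 members, while 29.3%, 33.3% and 37.3% of detected loci had their lowest value in replicates 1, 2 and 3. The MIXTA-like gene, lowest in replicate 1, rested on 53, 53 and 54 steps in replicates 1, 2 and 3. The SHINE-type gene, lowest in replicate 3, rested on 14, 13 and 12. Both varied less than counting error, so their lowest library carries little information. CD2 and CER6 were below their own means in replicate 2, by -0.25 and -0.22 on the log2 scale, and above them in replicate 3, by 0.22 and 0.23. The CYP86A-type gene went the opposite way, with deviations of 0.47 in replicate 2 and -0.48 in replicate 3. CD1 deviated by 0.10 in replicate 1, by 0.09 in replicate 2 and by -0.19 in replicate 3, and without replicate 3 its SD of log2 values was 0.01 in place of 0.17.

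CD2 and CER6 kept the most constant ratio of the 15 pairs. The regulator exceeded the wax enzyme 2.85-fold, 2.74-fold and 2.77-fold in replicates 1, 2 and 3, a mean of 2.79 ± 0.058 (SD, n = 3). The coefficient of variation of this ratio was 2.09%, below the 10.96% that counting of both genes gives, so its constancy is closer than the depth can resolve. On the log2 scale its SD was 0.03, against a median of 0.27 over the 15 ratios. The widest SD, 0.73, was that of CD2 over the CYP86A-type gene, with ratios of 8.92, 5.37 and 14.7 in replicates 1, 2 and 3. The pair of CD2 and CER6 was picked out from the 15 after the ratios were seen.

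Other genes of the pathway were taken from lists of loci recorded from general knowledge, and no source at hand allowed their identity to be checked. Of 8 loci recorded under cutin synthesis and export, 7 were detected in all 3 libraries, beside 68.7% of all loci, and 6 had means above the median of all loci, beside 50%. Counts of this size over 8 loci do not set the list apart. Their means ranged from 2.59 to 920.7 with a median of 108.0. The highest of them, Solyc03g025320, had 1010, 1017 and 734.8 in replicates 1, 2 and 3, a level close to that of CD1. Of the 7 detected loci, 5 had their lowest value in replicate 3 and 2 in replicate 2, beside the 37.3% and 33.3% of detected loci given above. Of the members, CD1 and the CYP86A-type gene also had their lowest value in replicate 3, as did the SHINE-type gene, on only 12 to 14 steps.

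Loci recorded under wax synthesis and under other epidermal regulators were detected at shares near the 68.7% of all loci. Of 4 wax loci, 3 were among the 21717 loci and 2 were detected. The means of the 3 ran from 6.63 to 176.0, with a median of 17.3. The highest of these, Solyc03g065250, had 327.0, 67.5 and 133.6 in replicates 1, 2 and 3, so that it varied far more than CER6. Of 7 loci recorded as other epidermal regulators, 4 were detected. The 4 detected loci were those recorded as HD-ZIP IV factors like CD2, and their means lay between 62.1 and 184.5, all below that of CD2. The 3 that were not detected were recorded as SHINE-type, MIXTA-like and MYB factors, with means of 1.58, 4.79 and 8.31, each below the SHINE-type and MIXTA-like members.

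**Figure D4:**
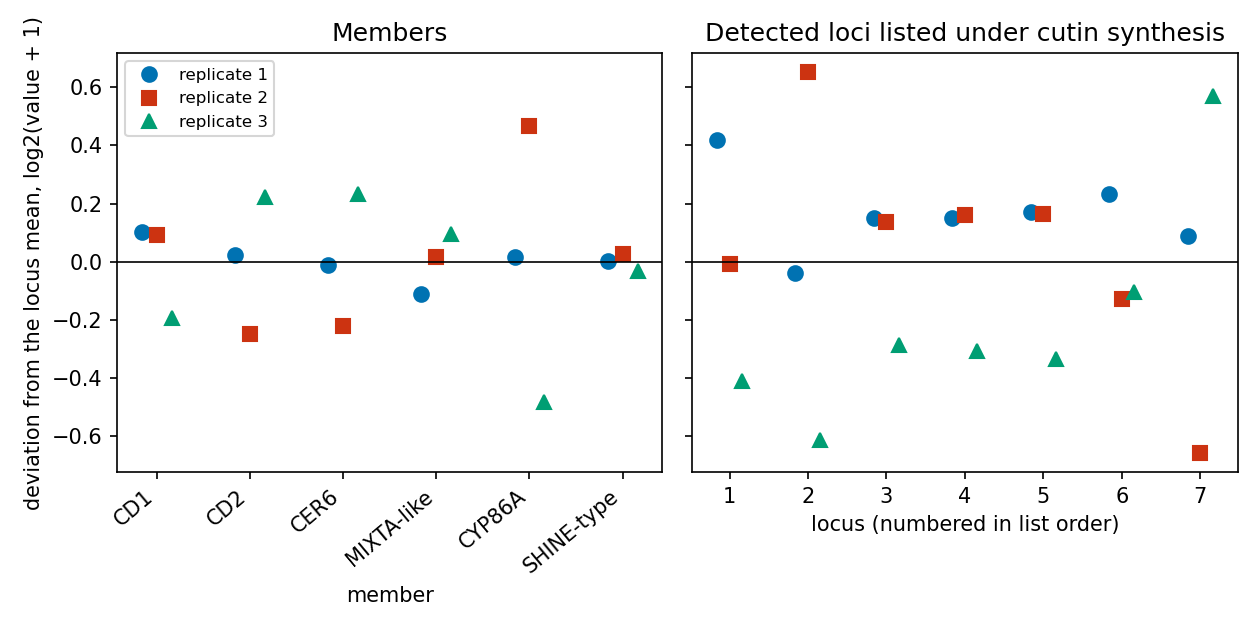
Deviation of log2(value + 1) from the locus mean in each of the 3 libraries, for the 6 members (left) and for the 7 detected loci recorded under cutin synthesis and export (right). CD2 and CER6 are low in replicate 2 and high in replicate 3, the CYP86A-type gene shows the reverse, and 5 of the 7 loci on the right have their lowest point in replicate 3.

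Suberin is a related polyester of roots and wounds, and its genes served as a check for other polymer-forming tissue. Of 7 loci recorded under suberin synthesis, only 1 was among the 21717 loci. It had 63.5, 7.27 and 3.23 in replicates 1, 2 and 3 and was not detected by the rule of 10 in every library. Replicate 1 was also the highest library for 1 of the 6 members, CD1, and for 5 of the 8 loci recorded under cutin synthesis and export. It was highest for 1 of the 3 analysed wax loci, Solyc03g065250, for 2 of the 7 other epidermal regulators and for 0 of the 6 leaf primordium loci. Both analysed loci of flower and ripening fruit were highest there too, but at only 2.84, the level of 3 steps. The share of all loci highest in replicate 1 was not computed, so these counts do not set replicate 1 apart. The part that other tissue may have in the members' values was not tested.

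Loci next to the members in identifier order were compared with them, because without a stated strand setting the reads of overlapping neighbours could not be told apart. Of 12 neighbouring loci, 0 had values within 3% of the member's in every library, and 6 were detected. The counting program set reads of ambiguous origin aside, so shared reads need not give near-identical values. The count of 0 therefore does not show that no reads were shared. The member exceeded the neighbour in every library in 10 of 12 cases. The exceptions were both neighbours of the SHINE-type gene, with means of 35.9 and 16.1 against 13.2 for the gene itself. No such share was computed over other adjacent loci, so the count does not set the members apart. The order of the libraries was the same in member and neighbour in 3 of 12 cases, beside 20.6% of all adjacent pairs of loci without ties. The neighbour of CD2 on the side of lower identifiers, Solyc01g091620, was among these 3, at 217.0, 180.7 and 314.6 in replicates 1, 2 and 3, and it was picked out after its values were seen.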

How the data were processed

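RNA of 3 slmp libraries, 1 group, was measured by 3′ end sequencing. The deposited table holds signal values, counts per locus scaled by the authors; Bowtie2, HTSeq and DESeq2 are named in the submitters' processing notes. For versions, genome build, annotation and strand setting: not given in the sources used here. Values fell on whole numbers of steps (tolerance 0.001 steps), but none was at 1 step, so a step is not shown to be 1 read. No count model was fitted, and the Poisson figures treat each step as 1 count. The 3 summary rows were left out of every level and depth. Shares were taken of the sum of loci and summary rows. Reads without a locus took 22.2% ± 0.825, reads set aside for low alignment quality 23.3% ± 2.12 and reads of ambiguous origin 2.58% ± 0.143 (SD, n = 3). Reads of a 3′ end outside the annotation fall in the first of these, which would lower a gene's level.

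Detection required 10 in every library, and log2 values used a pseudocount of 1. With 1 group no comparison between groups was tested. The members and lists were chosen with earlier results of these data known. The 7 members were the genes to be named, and loci of related lists were summarised by counts and ranges. Solyc08g081220, Solyc03g025320, Solyc03g065250 and the library order were singled out after their values were seen. Code for the summaries was run on simulated Poisson counts. These held no variation between libraries beyond counting, scaling and loci lowered in replicate 2. The simulation therefore does not test the spreads given here. Python 3.11.15, numpy 2.4.6, pandas 2.3.3 and matplotlib 3.10.9 were used. Alternatives covered scaling, pseudocounts, detection minimums and leaving out each library. Values near 3 steps, 2.84 to 3.23 scaled units, carry little precision.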

Additional observations from a re-analysis of the deposited data

Results flagged for a closer look

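Some deposited values lie outside every result given here: the summary rows of the counting program. Shares were taken of each library's sum over loci and summary rows together. Reads outside any locus made up 21.2% or more, reads set aside for low alignment quality 21.4% or more, and reads of ambiguous origin 2.43% or more. There was no control library to set these shares against, and how many of these reads came from the members was not tested.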

How the results depend on the processing

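Results were recomputed under 206 alternatives. Of these, 195 values stayed within 1.5 times of a count or spread or within 1 SD of a level or deviation. The 11 others are accounted for here. Leaving out 1 of 3 libraries, or taking their median, cannot move a single gene's level by 1 SD of those libraries. Those alternatives were bound to stay, as was the order by median, where each gene has 1 value. The 195 thus include outcomes fixed in advance and do not measure how robust the results are. The median spread of the members was 0.20, and between 0.12 and 0.26 with 1 replicate left out in turn, where an SD over only 2 libraries is often smaller. Members lowest in replicate 1 numbered 1, and 3 without replicate 2 or without replicate 3, where only 2 libraries remain to hold the lowest value. Summarised by averaging log2 values, the level of the recorded cutin loci was 91.1 against 108.0 as a median, that of other epidermal regulators 28.1 against 62.1, and that of wax loci 28.1 against 17.3; the cause was not tested. The remaining 5 were single spreads of CD1, CD2, CER6, the MIXTA-like and the SHINE-type gene with 1 replicate left out. Pairs of members without overlap numbered 15 with equal library totals, without replicate 1 and without replicate 2, against 14. The median SD of background loci was 0.34 with no filter on low values. Deviations of single genes were not recomputed with a replicate left out. No paired analysis was possible because there is only 1 group. Depth limits the SHINE-type gene most, at 12 to 14 steps per library.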
